A study of Homo sapiens with 9 samples.

Results

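The mesenchymal state genes were 10 of the 61552 genes in the deposited files, taken by gene name: VIM, FN1, CDH1, CDH2, SNAI1, SNAI2, TWIST1, TWIST2, ZEB1 and ZEB2. They are the structural markers of the epithelial-to-mesenchymal transition (EMT) and the transcription factors that drive it, and they were picked for those roles. The RNA was that of MDA-MB-231, an established line of human triple-negative breast cancer (breast cancer without the estrogen, progesterone and HER2 receptors), of wild-type (WT) genotype and grown in DMEM with serum. The cells were kept for 24 h with 10 mM or 20 mM 2-deoxy-glucose (2-DG), or with phosphate-buffered saline in its place (0 mM, the control), and 3 libraries were sequenced for each condition. 2-DG is a glucose analogue that cells take up like glucose and that slows glycolysis. All 9 libraries came from a single untransfected line in culture, so other cells of a tumor were absent by design, and the labels do not say whether the libraries of a condition came from separate cultures. The p-values below therefore measure the spread between these samples, which may be technical.

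In epithelial cells, E-cadherin joins neighbouring cells at adherens junctions, where catenins tie it to the actin skeleton. During EMT, transcription factors of the SNAIL, ZEB and TWIST families bind short DNA motifs called E-boxes in the promoters of E-cadherin and other epithelial genes and repress them, while vimentin, fibronectin and often N-cadherin become more abundant. In breast cancer the mesenchymal state is tied to migration and invasion, and MDA-MB-231 is widely used as an example of a line that already resides in it.

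Expression was given as FPKM, the reads on a gene scaled by its length and by the library total. In each library a single read adds a fixed step to the FPKM of a gene, and from these steps the library totals and the reads behind each value could be recovered. The totals were 35517179, 36650036 and 34300991 reads in control replicates 1 to 3. They were 35138071, 40843638 and 34374980 reads at 10 mM 2-DG, and 30974968, 39780925 and 33060480 reads at 20 mM 2-DG. On a gene of 1 kilobase, 1 read was worth between 0.0245 and 0.0323 FPKM. A gene of that length well under 0.1 FPKM therefore rested on a handful of reads, and a longer gene at the same FPKM on more. None of 18 widely used genes checked was at 0 in any library, and their lowest value was 2.69 FPKM.

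Libraries of a condition did not stand equally close to each other. Between replicates, the variance of the reads was 4.76 to 6.83 times what sampling gives at 20 mM 2-DG, 14.8 to 22.6 times in the control, and 27.7 to 58.9 times at 10 mM 2-DG. A shift between long and short genes ran along this spread. It was measured as the mean log2(FPKM + 1) of the 3000 tested genes with at least 8000 exon bases minus that of the 2964 genes with under 2000, the mesenchymal state genes left out. This difference was highest in replicate 1 at 10 mM 2-DG (0.0775) and in control replicate 2 (0.0204), and lowest in replicate 2 at 10 mM 2-DG (-0.214) and in control replicate 1 (-0.166). Those 4 libraries lay farthest from the mean of their own condition, and values that move with them are given as such below.

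The promoters and microRNAs shown here place the factors beside genes of the kind they are known to repress. An E-box of the type bound by SNAIL and ZEB factors reads CAGGTG, or CACCTG on the opposite strand, so that a search for both words covers both strands. RefSeq promoters on GRCh38.p14, which run from 250 bases before a start to 50 after it, were listed for 6 of the 10 genes (VIM, FN1, CDH2, TWIST2, ZEB1 and ZEB2), and CDH1, SNAI1, SNAI2 and TWIST1 had no entry. At least 1 E-box occurred in 20.6% of the 35116 promoters in the table, at least 2 in 3.49%, and at least 3 in 0.635%. Among the 13 listed starts of the 6 genes, 2 held an E-box, both of them starts of ZEB1. One ZEB1 promoter is shown because it holds 3, JUP and ELF3 because they fell most among the catenins and among the epithelial transcription factors described below, and CLDN7, chosen after its values were seen, because it is an epithelial gene with 5 E-boxes (0.094% of promoters have at least 5) whose change was not called. JUP and CLDN7 each have 2 listed starts, of which the one not shown holds 0 E-boxes, and 5 of the 7 starts of ZEB1 hold 0. Each is written 5′ to 3′ on the strand of its gene, with E-boxes in capitals.
ZEB1 (chr10:31318966-31319265, plus strand): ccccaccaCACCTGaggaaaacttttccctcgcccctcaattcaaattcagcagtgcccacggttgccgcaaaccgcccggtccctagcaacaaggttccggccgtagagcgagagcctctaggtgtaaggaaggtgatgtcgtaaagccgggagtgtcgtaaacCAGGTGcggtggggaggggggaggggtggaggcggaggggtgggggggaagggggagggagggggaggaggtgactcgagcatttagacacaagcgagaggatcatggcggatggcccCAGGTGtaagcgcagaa
JUP (chr17:41785927-41786226, minus strand): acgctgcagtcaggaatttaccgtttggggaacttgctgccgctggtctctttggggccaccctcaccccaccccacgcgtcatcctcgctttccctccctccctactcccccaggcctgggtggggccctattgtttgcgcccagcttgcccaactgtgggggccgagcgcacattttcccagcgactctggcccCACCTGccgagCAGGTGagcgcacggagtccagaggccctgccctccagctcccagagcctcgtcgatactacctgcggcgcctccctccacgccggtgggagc
ELF3 (chr1:202010337-202010636, plus strand): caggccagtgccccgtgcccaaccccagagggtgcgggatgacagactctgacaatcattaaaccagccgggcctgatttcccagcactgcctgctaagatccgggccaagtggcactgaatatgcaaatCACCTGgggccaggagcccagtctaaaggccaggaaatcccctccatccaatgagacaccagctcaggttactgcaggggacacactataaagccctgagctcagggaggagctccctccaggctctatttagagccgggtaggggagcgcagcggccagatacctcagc
CLDN7 (chr17:7262429-7262728, minus strand): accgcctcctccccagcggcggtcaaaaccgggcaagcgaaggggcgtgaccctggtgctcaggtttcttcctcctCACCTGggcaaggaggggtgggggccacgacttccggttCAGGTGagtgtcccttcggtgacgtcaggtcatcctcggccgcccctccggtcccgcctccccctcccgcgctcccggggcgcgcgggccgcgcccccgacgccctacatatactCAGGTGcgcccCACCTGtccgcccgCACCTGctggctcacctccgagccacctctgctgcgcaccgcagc
In ZEB1 the E-boxes began 242 and 85 bases before the start and 33 bases after it. The pair in JUP began 54 and 43 bases before the start, and the E-box in ELF3 began 120 bases before it. A match describes the letters in a window and is not evidence that a factor binds there.

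ZEB1 and ZEB2 are also known as main targets of the miR-200 family, with which they repress each other. The family falls into 2 groups by the seed (bases 2 to 8, in capitals), the stretch that pairs with target RNA. The sequences are from RefSeq, and all 5 members of the family had an entry.
hsa-miR-200b-3p: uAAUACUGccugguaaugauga
hsa-miR-200c-3p: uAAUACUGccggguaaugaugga
hsa-miR-429: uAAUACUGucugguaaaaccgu
hsa-miR-200a-3p: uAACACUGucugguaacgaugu
hsa-miR-141-3p: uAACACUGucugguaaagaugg
The first 3 share the seed AAUACUG and the other 2 share AACACUG. Mature microRNAs were not measured in these libraries. The annotated host transcript of miR-200c and miR-141, MIR200CHG (ENSG00000257084, chosen after its values were seen), was listed at 0 in all 9 libraries.

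Of the 10 mesenchymal state genes, 8 passed the filter on low values, which asked for 10 reads or more, scaled to the median depth, in 3 or more libraries and for 15 reads or more over all of them. TWIST1 and TWIST2 did not pass. CDH2 passed only through the control, the one condition in which its libraries reached 10 reads, so a difference from the control was built into its place among the tested genes. The gene positions below are those of GENCODE release 29 on GRCh38, which may not be the annotation behind the FPKM.

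VIM and FN1, among the structural markers, were the most abundant of the 10 genes. VIM (ENSG00000026025, chromosome 10, 17228259 to 17237593, plus strand) encodes vimentin, the intermediate filament of mesenchymal cells. It stood at 301, 252 and 303 FPKM in control replicates 1 to 3, at 243, 313 and 312 FPKM at 10 mM 2-DG, and at 263, 288 and 270.2 FPKM at 20 mM 2-DG. The conditions overlapped, and the lowest values were those of control replicate 2 and of replicate 1 at 10 mM, the pair of libraries highest in long genes. VIM lay between the 99.3 and the 99.4 percentile of the 16569 tested genes in every library and made up between 73.7% and 84.9% of the summed FPKM of the 10 genes. An antisense gene, VIM-AS1, shares 641 exon bases with VIM on the opposite strand and was itself at 0.603 to 1.20 FPKM. Whether reads were counted by strand is not stated, and the part of VIM-AS1 in the VIM reads was not tested.

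FN1 (ENSG00000115414, chromosome 2, 215360440 to 215436172, minus strand) encodes fibronectin, a matrix protein that mesenchymal cells secrete. It was at 54.9, 78.1 and 63.1 FPKM in the control, 69.3, 45.6 and 51.5 FPKM at 10 mM and 53.3, 50.7 and 64.9 FPKM at 20 mM 2-DG. The replicates of a condition differed more than the conditions did. In each condition the order of its replicates by FN1 was their order by the long-gene difference, with only 3 libraries in each.

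The cadherins were the least abundant of the genes detected. CDH1 (ENSG00000039068, chromosome 16, 68737225 to 68835548, plus strand) encodes E-cadherin. Control replicates 1 to 3 had 0.417, 0.400 and 0.278 FPKM of CDH1, those at 10 mM 2-DG had 0.0515, 0.0484 and 0.0479 FPKM, and those at 20 mM had 0.0691, 0.0621 and 0.0747 FPKM. All 6 treated libraries were far below the lowest control library, and at each dose the replicates lay close together. For this gene and those below, the share of all genes whose libraries separate in this way was not counted. The values rested on 90, 89 and 58 recovered reads in the control, 11, 12 and 10 at 10 mM, and 13, 15 and 15 at 20 mM, out of at least 30974968 reads in each library. In bulk RNA, fewer cells with a transcript and less of it in each cell cannot be told apart.

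CDH2 (ENSG00000170558, chromosome 18, 27950966 to 28177446, minus strand) encodes N-cadherin, which often replaces E-cadherin in EMT. It had 13, 13 and 17 reads in the control, 8, 3 and 3 at 10 mM and 0, 6 and 5 at 20 mM 2-DG, or at most 0.0577 FPKM. N-cadherin RNA was thus near the detection limit in every condition of this mesenchymal-like line, and lower in each treated library than in each control library. An antisense gene, AC110015.1, shares 136 exon bases with CDH2 and reached 0.262 FPKM, more than CDH2 itself, and its part in these reads was not tested. The mean of CDH2 was 0.0472 ± 0.00912 FPKM (SD, n = 3) in the control, against 0.0151 ± 0.00994 at 10 mM and 0.0117 ± 0.0102 at 20 mM.

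SNAI1 (ENSG00000124216, chromosome 20, 49982999 to 49988886, plus strand) encodes SNAIL, a zinc-finger repressor of E-cadherin whose protein is short-lived. Its level was 2.00, 1.52 and 1.86 FPKM in the control, 1.12, 0.919 and 0.904 FPKM at 10 mM 2-DG, and 0.776, 0.929 and 0.568 FPKM at 20 mM. Every treated library lay below every control library, while the doses overlapped. The recovered reads were 121, 95 and 109 in the control, 67, 64 and 53 at 10 mM, and 41, 63 and 32 at 20 mM.

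SNAI2 (ENSG00000019549, chromosome 8, 48917604 to 48921740, minus strand) encodes SLUG, a SNAIL relative with the same kind of zinc fingers that is also active in basal mammary cells. Its level was 2.81, 3.43 and 2.96 FPKM in the control, 5.64, 4.09 and 4.82 FPKM at 10 mM, and 4.43, 4.28 and 4.38 FPKM at 20 mM 2-DG. Here each treated library lay above each control library, the opposite of SNAI1. These values rested on between 328 and 650 reads a library. At 10 mM and in the control the order of the replicates by SNAI2 was also their order by the long-gene difference, and the part of that difference in the level was not tested beyond the fits in the closing section.

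TWIST1 (ENSG00000122691, chromosome 7, 19020991 to 19117672, minus strand) and TWIST2 (ENSG00000233608, chromosome 2, 238848032 to 238910543, plus strand) encode basic helix-loop-helix factors that act in mesoderm and in EMT. Both were listed at 0 in all 9 libraries. At their GENCODE exon lengths, 3 reads in a library would have been worth up to 0.0476 FPKM for TWIST1 and up to 0.0516 FPKM for TWIST2, so the depth allows levels up to those values and no fold change can be given. These limits and the intervals of reads below cover counting error only.

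ZEB1 (ENSG00000148516, chromosome 10, 31318495 to 31529814, plus strand) and ZEB2 (ENSG00000169554, chromosome 2, 144364364 to 144524583, minus strand) encode large repressors with zinc fingers at both ends and a homeodomain between them. ZEB1 stood at 4.0, 5.80 and 5.38 FPKM in the control, at 7.94, 4.51 and 6.53 FPKM at 10 mM 2-DG, and at 6.77, 6.22 and 6.79 FPKM at 20 mM. Its libraries at 20 mM were all above those of the control, while those at 10 mM spanned most of the range. ZEB2 was at 0.307, 0.551 and 0.475 FPKM in the control, 0.558, 0.372 and 0.415 FPKM at 10 mM and 0.439, 0.410 and 0.466 FPKM at 20 mM, and its conditions overlapped throughout. As with FN1, the order of the replicates of each condition by ZEB1 and by ZEB2 was their order by the long-gene difference. Antisense genes share 366 exon bases with ZEB1 (ZEB1-AS1, at most 0.861 FPKM) and 1299 with ZEB2 (ZEB2-AS1, at most 0.00964 FPKM).

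**Figure D1:**
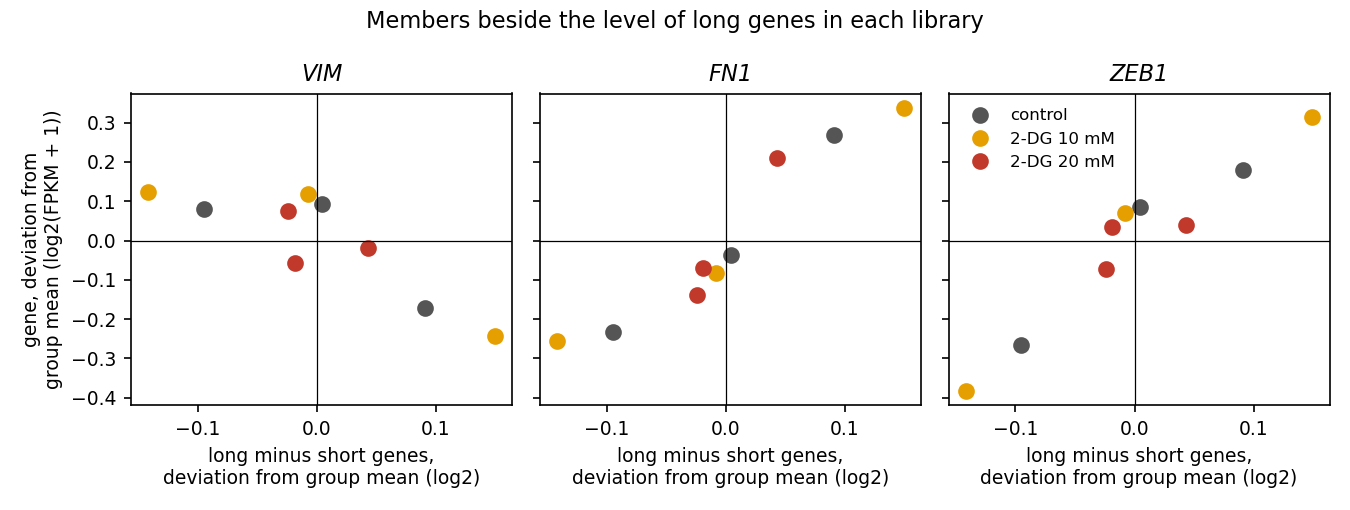
Level of VIM, FN1 and ZEB1 in each of the 9 libraries (vertical axis, log2(FPKM + 1) as the deviation from the mean of the condition) against the difference between long and short genes in that library (horizontal axis, log2, as the deviation from the mean of the condition). FN1 and ZEB1 are highest, and VIM lowest, in control replicate 2 and in replicate 1 at 10 mM 2-DG within their conditions.

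The order of the levels was the same in the 3 conditions: VIM, FN1, ZEB1, SNAI2, SNAI1, ZEB2, CDH1 and CDH2, from the highest mean FPKM to the lowest. In the control, VIM was 4.36 times as high as FN1, and FN1 was 12.9 times as high as ZEB1, the highest of the transcription factors. Most neighbours in this order had ranges that did not overlap. The exceptions were ZEB2 and CDH1 in the control (0.444 ± 0.125 and 0.365 ± 0.0756 FPKM, SD, n = 3) and ZEB1 and SNAI2 at 10 mM (6.33 ± 1.72 and 4.85 ± 0.775 FPKM, SD, n = 3).

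**Figure D2:**
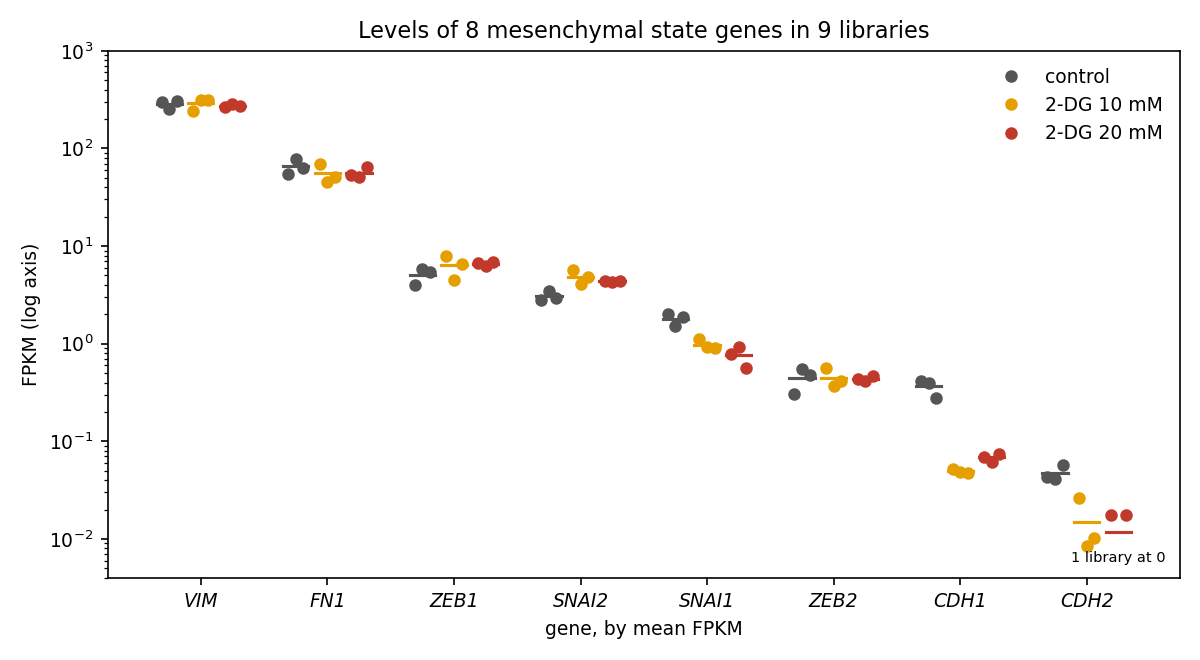
FPKM (log axis) of the 8 mesenchymal state genes detected, in order of their mean, with 1 point for each of the 9 libraries and a line at the mean of each condition. CDH1, CDH2 and SNAI1 lie lower, and SNAI2 higher, in each treated library than in each control library, and the CDH2 library at 0 cannot be drawn on this axis. CDH2 passed the filter only through the control. The share of all genes whose libraries separate in this way was not counted.

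The comparison of 10 mM 2-DG with the control asked which genes differ in cells kept with 2-DG. By limma's moderated test on log2(FPKM + 1), 3 of the 8 tested genes had a Benjamini-Hochberg adjusted p under 0.05, of which SNAI2 was higher and CDH1 and SNAI1 were lower. Among all 16569 genes tested, 4913 (29.7%) passed this threshold, 12.1% higher and 17.5% lower, so a share of 3 in 8 is close to that of genes in general. The methods of the study ask for a log2 fold change of more than 1 in size and a p below 0.05, applied there with DESeq2, which needs counts and was not run here, and they do not say whether that p was adjusted. Put on the log2(FPKM + 1) fold change and the unadjusted p of limma, these thresholds called 0 of the 8, where 1.74% of all genes were called. Put on limma-voom fold changes of the recovered reads, they called CDH1 and CDH2 lower, where 9.57% of all genes were called, with CDH2 in the test only through the control. Adding 1 to each FPKM makes changes of weakly expressed genes look smaller than they are, and for that reason the ratio of mean FPKM is given beside the log2 fold change.

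CDH1 fell from 0.365 ± 0.0756 to 0.0493 ± 0.00198 FPKM (SD, n = 3), which is 13.5% of the control. The ratio of its summed reads, 33 against 237, had a 95% exact binomial interval from 0.0904 to 0.194. Its log2 fold change of FPKM + 1 was -0.38 (95% confidence interval -0.48 to -0.28), with a limma adjusted p of 0.000193 and all 3 treated libraries below the control range. The drop in E-cadherin RNA was thus large as a ratio and small in absolute level, since CDH1 was under 1 FPKM to begin with.
SNAI1 fell from 1.79 ± 0.246 to 0.981 ± 0.120 FPKM (SD, n = 3), or to 54.7% of the control. Its log2 fold change was -0.49 (-0.72 to -0.26), with a limma adjusted p of 0.00565 and 3 of 3 libraries below the control range. SNAI2 rose from 3.07 ± 0.320 to 4.85 ± 0.775 FPKM (SD, n = 3), 1.58 times the control, with an interval of the ratio of reads from 1.45 to 1.69. For SNAI2 the log2 fold change was 0.52 (0.28 to 0.76) and the limma adjusted p 0.00526, with 3 of 3 libraries above the control range. The RNA of a repressor of E-cadherin thus became scarcer and that of its relative more abundant, while E-cadherin RNA went down.

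The other 5 tested genes were not called at 10 mM 2-DG. VIM had a log2 fold change of 0.01 with a confidence interval from -0.24 to 0.27, which bounds any change to between 0.850 and 1.20 times the control. For FN1 it was -0.24 (-0.61 to 0.13), and for ZEB1 0.26 (-0.12 to 0.64), intervals wide enough to hold changes as large as those of SNAI1 or SNAI2. ZEB2 was at 0.01 (-0.16 to 0.17). The 14 reads of CDH2 against 43 in the control gave a ratio of 0.314 with a 95% interval from 0.159 to 0.585, but limma's test on log2(FPKM + 1), where the change was -0.05, did not call it (adjusted p = 0.257, lower in 3 of 3 libraries).

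The comparison of 20 mM 2-DG with the same control libraries asked the same question at the higher dose. Again 3 of the 8 genes were called by limma, SNAI2 higher and CDH1 and SNAI1 lower, where 37.0% of all tested genes were called, 15.4% higher and 21.6% lower. The thresholds of the study called 0 of the 8 on log2(FPKM + 1), against 2.92% of all genes. On the recovered reads with limma-voom they called CDH1, SNAI1 and CDH2 lower, against 12.8% of all genes. CDH2 was in that test only through the control, so a difference from the control was built into its place there. As both comparisons use the control libraries, they are not independent of each other.

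CDH1 was at 0.0686 ± 0.00632 FPKM (SD, n = 3), or 18.8% of the control, from 43 reads against 237. The 95% interval of that ratio of reads was 0.131 to 0.258. On the log2 scale the change was -0.35 (-0.45 to -0.25), with a limma adjusted p of 0.000207 and 3 of 3 libraries below the control range. SNAI1, at 0.758 ± 0.181 FPKM (SD, n = 3), was at 42.2% of the control, which is to say 2.37-fold lower. The log2 fold change was -0.67 (-0.90 to -0.44), with a limma adjusted p of 0.000764 and 3 of 3 libraries below the control range. The SNAI1 libraries of the doses overlapped, and its change from 10 mM to 20 mM was not called (limma adjusted p = 0.827). SNAI2 was at 4.36 ± 0.0738 FPKM (SD, n = 3), 1.42 times the control. Its log2 fold change was 0.40 (0.16 to 0.64) with a limma adjusted p of 0.0144, and 3 of 3 libraries were above the control range.

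ZEB1 was at 6.59 ± 0.328 FPKM (SD, n = 3) against 5.06 ± 0.942 in the control. The ranges did not overlap, yet the log2 fold change of 0.34 (-0.04 to 0.72) was not called by limma (adjusted p = 0.150, higher in 3 of 3 libraries). Its replicates were far apart in the control and at 10 mM, where the SD was 1.72 FPKM. VIM had a log2 fold change of -0.06 (-0.31 to 0.19), FN1 of -0.21 (-0.58 to 0.17) and ZEB2 of -0.00 (-0.17 to 0.16), none of them called. Leaving out 1 library, FN1 ranged from -0.321 to -0.0709. For CDH2 the ratio of reads, 11 against 43, was 0.262 (95% interval 0.122 to 0.517), and the log2 fold change of -0.05 was not called (limma adjusted p = 0.192, lower in 3 of 3 libraries).

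**Figure D3:**
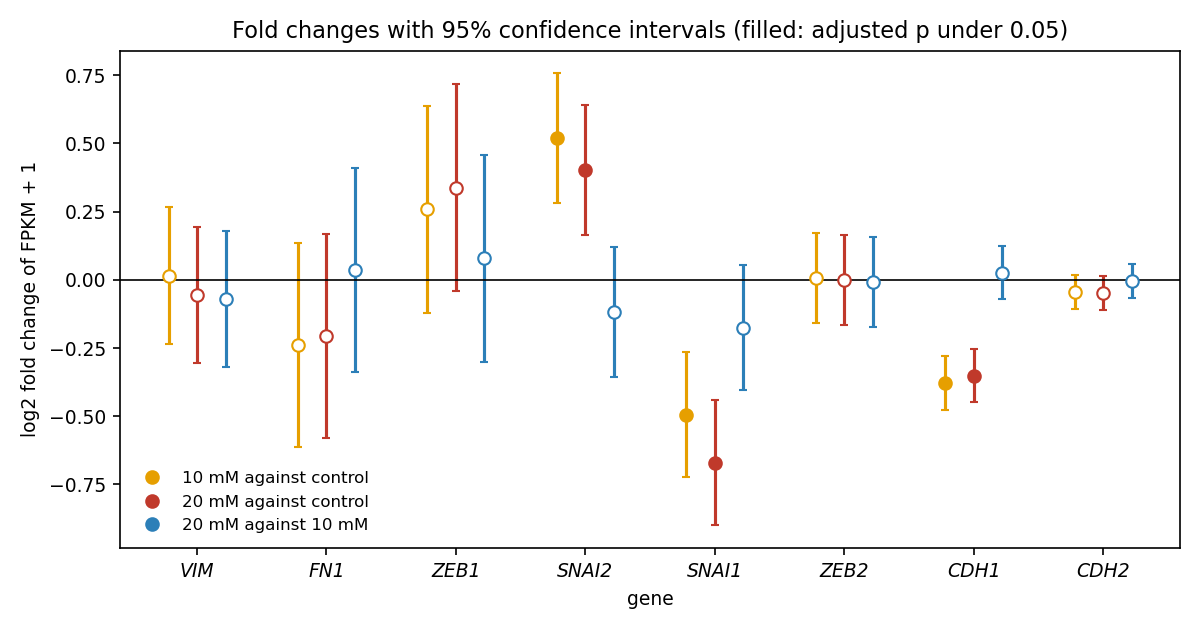
Log2 fold change of FPKM + 1 (vertical axis) of the 8 tested mesenchymal state genes in the 3 comparisons, with 95% confidence intervals from limma; filled points have an adjusted p under 0.05. SNAI2 is filled above 0, SNAI1 and CDH1 are filled below 0 at both doses against the control, and every interval of 20 mM against 10 mM includes 0.

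The opposite moves of SNAI1 and SNAI2 changed the balance between them. The ratio of SNAI2 to SNAI1, both in FPKM, was 1.41, 2.25 and 1.59 in the control, 5.04, 4.45 and 5.33 at 10 mM, and 5.70, 4.61 and 7.71 at 20 mM 2-DG. SLUG RNA was thus the more abundant of the pair in each library, and by a wider margin in each treated one. The mean ratio was 1.75 ± 0.445 (SD, n = 3) in the control, against 4.94 ± 0.451 at 10 mM and 6.01 ± 1.57 at 20 mM. Between the ZEB genes the ratio moved less. ZEB1 over ZEB2 was 11.6 ± 1.28 in the control, against 14.0 ± 1.82 at 10 mM and 15 ± 0.428 at 20 mM (SD, n = 3), and the libraries at 10 mM overlapped those of the control. Since each ratio is taken within a library, the library total cancels out of it, but the difference between long and short genes need not. In the control and at 20 mM, though not at 10 mM, the order of the replicates by SNAI2 over SNAI1 was their order by that difference. Its part in the ratios was not tested.

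**Figure D4:**
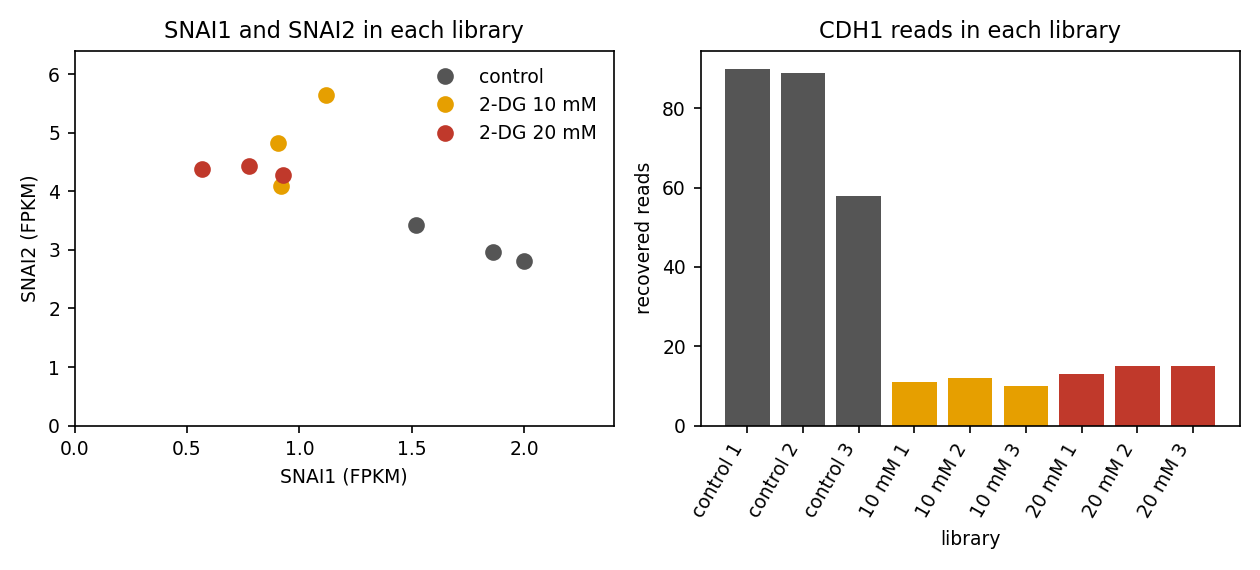
Left, SNAI2 against SNAI1 (both in FPKM) with 1 point for each of the 9 libraries; the control libraries lie at higher SNAI1 and lower SNAI2 than each treated library. Right, reads of CDH1 recovered in each library, from 58 to 90 in the control and from 10 to 15 in the treated libraries.

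The comparison of 20 mM with 10 mM 2-DG asked whether the second step in dose moved the genes further. None of the 8 was called by limma, and neither was any of the 16569 genes (0%), although 1140 genes (6.88%) had an unadjusted p under 0.05. With limma-voom on the recovered reads the count was also 0. It was 3 of the 32806 genes when all genes above 0 were tested. Without replicate 1 at 10 mM, 1 gene was higher and 3 were lower, and in both fits 0 of the 8 were called. The thresholds of the study called 1 gene on log2(FPKM + 1) (0.00604%) and 173 genes on the recovered reads (1.04%), with 0 of the 8 among them. SNAI1 had the largest log2 fold change of the 8 in size, -0.18 (-0.41 to 0.05), with an adjusted p of 0.827 by limma and overlapping libraries. The counting interval of its ratio of reads, 0.625 to 0.986, lay below 1, while the confidence interval from limma, which includes the spread between libraries, spanned 0. CDH1 was higher at 20 mM than at 10 mM in each library, by a ratio of 1.39 of mean FPKM, but the 43 and 33 reads behind it gave an interval from 0.860 to 2.25 and limma's adjusted p was 0.980. SNAI2 was at 0.900 of its level at 10 mM, with a log2 fold change of -0.12 (-0.35 to 0.12). The log2 fold changes of the other 5 tested genes lay between -0.07 (VIM) and 0.08 (ZEB1).

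For the 5 genes with a mean of at least 1 FPKM, the protein-coding genes most like them over the 9 libraries were found by Pearson's r of log2(FPKM + 1) among 9817 candidates. Replicates share their depth and the shift between long and short genes, so these are descriptions only. VIM was most like ARPC3 (r = 0.987) and TFPT (r = 0.962), and FN1 most like AFAP1 (r = 0.985) and IRS1 (r = 0.984). Those genes, like VIM and FN1, differed between replicates more than between conditions. SNAI1 was most like NDE1 (r = 0.977) and AP1S3 (r = 0.974), each lower than the control at both doses, and SNAI2 most like MBD6 (r = 0.993) and LOX (r = 0.980), each higher. LOX, which encodes a collagen cross-linking enzyme, is itself a mesenchymal marker, and its mean was 15.1 FPKM in the control, against 21.9 at 10 mM and 20.8 at 20 mM 2-DG. ZEB1 was most like TUT4 (r = 0.985) and RNF6 (r = 0.984).

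Catenins link E-cadherin to the cytoskeleton, and a list of 4 was examined. At 10 mM 2-DG, 2 of the 4 were lower and 0 higher (JUP and CTNNB1), and at 20 mM only JUP was lower, where 29.7% and 37.0% of all genes were called. The call of CTNNB1 at 10 mM was kept in 13 of 18 alternatives. JUP, plakoglobin, went from 25.9 ± 1.60 FPKM in the control to 9.29 ± 0.428 at 10 mM and 7.67 ± 0.509 at 20 mM (SD, n = 3). Its log2 fold changes were -1.38 and -1.63 (limma adjusted p = 2.04e-06 and 4.04e-07, with 3 of 3 libraries lower at each dose), which passed the thresholds of the study on log2(FPKM + 1) as well. Unlike CDH1, it was abundant enough for this fall to be large in absolute level. Of its 2 listed promoters, the one with E-boxes is printed above. CTNNB1, beta-catenin (chosen after its values were seen), was at 38.0 FPKM in the control, against 29.5 at 10 mM and 31.3 at 20 mM.

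Of 28 other epithelial genes, 21 were tested. At 10 mM 2-DG, 1 was higher and 6 were lower (33.3% called, beside 29.7% of all genes), and at 20 mM 3 were higher and 6 lower (42.9%, beside 37.0%). The median log2 fold change was -0.06 at both doses, where that of all genes was -0.01 and -0.02. Among all genes, too, more were called lower than higher (17.5% against 12.1% at 10 mM, and 21.6% against 15.4% at 20 mM), but this excess depended on scaling, since with median-ratio scaling 2487 genes were lower and 2238 higher at 10 mM, and 3058 and 2923 at 20 mM. GRHL1, one of the 6 lower at each dose and named after its values were seen, kept its call in 10 of 18 alternatives at 10 mM and in 5 at 20 mM. KRT7, a simple-epithelial keratin, fell from 118 FPKM in the control to 64.2 at 10 mM and 54.9 at 20 mM (log2 fold change at 20 mM -1.08, limma adjusted p = 6.56e-06). KRT8, another keratin of simple epithelia, went from 141 to 91.3 and 84.3 FPKM (-0.73 at 20 mM). The epithelial transcription factor ELF3, with 1 E-box in the promoter shown, fell from 1.97 to 0.666 and 0.410 FPKM (-1.07 at 20 mM, limma adjusted p = 1.08e-05, with 3 of 3 libraries lower). CLDN1, a tight-junction claudin, went the other way, from 2.60 to 4.97 and 4.68 FPKM (0.66 at 20 mM). The other genes higher at 20 mM, chosen after their values were seen, were CLDN4 and the splicing factor ESRP1, the latter at 0.0578 FPKM in the control, against 0.224 at 10 mM and 0.390 at 20 mM. ESRP1 reached 10 reads in 1 control library and in all 6 treated ones, so it passed the filter only through the treated conditions, a rise was built into its place among the tested genes, and the count of 3 higher includes it. ESRP2, its paralog and also named after its values were seen, was lower instead, with a log2 fold change of -0.45 at 20 mM, and kept its call in 14 of 18 alternatives at 10 mM. CLDN7, the gene with 5 E-boxes, stood at 15.4 FPKM in the control, against 14.8 at 10 mM and 16.4 at 20 mM, and its change of 0.08 at 20 mM was not called (limma adjusted p = 0.471).

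Of 26 other mesenchymal markers, 23 were tested, and 3 were higher and 6 lower at 10 mM 2-DG (39.1% called, beside 29.7% of all genes). At 20 mM, 2 were higher and 7 lower (39.1%, beside 37.0%), with medians of -0.03 and -0.10. TNC, a matrix glycoprotein, rose from 4.22 FPKM in the control to 12.5 at 10 mM and 17.8 at 20 mM (log2 fold change at 20 mM 1.86, limma adjusted p = 5.95e-06, with 3 of 3 libraries higher), and MYL9, a myosin light chain, fell from 40.4 to 19.3 and 15.9 FPKM (-1.29 at 20 mM). These were the markers that also passed the thresholds of the study on log2(FPKM + 1). S100A4, a calcium-binding protein tied to motility, fell from 232 to 156 and 139 FPKM. LOXL2, a relative of LOX, fell from 59.8 to 45.2 and 41.6 FPKM. The higher genes at 10 mM were TNC, LOX and TPM2, and at 20 mM TNC and LOX, of which TPM2 was chosen after its values were seen and kept its call in 12 of 18 alternatives. Among the lower ones, named after their values were seen, LGALS1 kept its call in 6 of 18 at 10 mM and 8 at 20 mM, PDGFRB in 10 and 11, and CDH11, called only at 20 mM, in 9.

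Among 19 other EMT transcription factors and partners, of which 16 were tested, 4 were higher and 3 lower at 10 mM 2-DG (43.8% called, beside 29.7% of all genes). At 20 mM it was 4 higher and 5 lower (56.3%, beside 37.0%), with medians of 0.08 and 0.09. SOX4, a factor induced by TGF-beta, fell from 6.12 FPKM in the control to 3.10 at 10 mM and 2.77 at 20 mM (log2 fold change at 20 mM -0.89, limma adjusted p = 0.00135, with 3 of 3 libraries lower). The forkhead factor FOXC1 rose from 2.82 to 3.75 and 3.98 FPKM, although its call was kept in 9 of 18 alternatives at 10 mM and in 17 at 20 mM. ID proteins hold TWIST partners inactive, and they split. ID1 fell from 98.4 to 75.6 and 58.4 FPKM, although its call at 10 mM, with a limma adjusted p of 0.0489 and a log2 fold change of -0.40, was kept in 6 of 18 alternatives of the processing. ID3 stood at 13.5 FPKM in the control and 12.7 at 10 mM and fell to 7.96 at 20 mM (-0.70, limma adjusted p = 0.000919, with 3 of 3 libraries lower). The other genes higher at both doses, named after their values were seen, were KLF8, ID2 and ID4, the last kept in 9 of 18 alternatives at 10 mM and in 14 at 20 mM, with ID2 at 0.0814, 0.333 and 0.410 FPKM. ID2 had 194 reads in all and reached 10 reads in 0 control libraries, so it passed the filter only through the treated conditions and a rise was built into its place among the tested genes. The genes lower at 10 mM were TCF3, SOX4 and ID1, and those lower at 20 mM were these, ID3 and FOXQ1, of which TCF3 and FOXQ1 were chosen after their values were seen.

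SNAIL, ZEB and TWIST factors silence their targets through corepressors, and all 12 corepressors listed were tested. At 10 mM 2-DG 0 were higher and 5 lower (41.7% called, beside 29.7% of all genes), and at 20 mM 2 were higher and 6 lower (66.7%, beside 37.0%). The medians were -0.25 and -0.27. EZH2, the methyltransferase of the polycomb complex, fell from 8.90 FPKM in the control to 4.63 at 10 mM and 4.19 at 20 mM (log2 fold change at 20 mM -0.93, limma adjusted p = 1.54e-05, with 3 of 3 libraries lower). SUV39H1, a methyltransferase of heterochromatin, fell from 8.13 to 4.58 and 3.79 FPKM. Smaller falls were those of the deacetylase HDAC2, from 9.30 to 7.09 and 6.57 FPKM, and of the demethylase KDM1A, from 6.97 to 5.57 and 5.54 FPKM. HDAC1 was the other gene lower at 10 mM, and CTBP1 and CTBP2 were the ones higher at 20 mM, all 3 chosen after their values were seen. The call of CTBP1 was kept in only 6 of 18 alternatives and that of EHMT2, lower at 20 mM and also named after its values were seen, in 12, while at 10 mM that of HDAC2 was kept in 9 and that of HDAC1 in 13. Whether the levels of the corepressors bear on that of CDH1 was not tested.

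TGF-beta is a main inducer of SNAI1, SNAI2 and the ZEB genes, and 20 of 20 listed genes of its pathway were tested. At 10 mM 2-DG, 5 were higher and 4 lower (45.0% called, beside 29.7% of all genes), and at 20 mM 5 were higher and 6 lower (55.0%, beside 37.0%), with medians of 0.05 and 0.09. BAMBI, a decoy receptor that dampens the signal, rose from 6.62 FPKM in the control to 12.7 at 10 mM and 14.1 at 20 mM (log2 fold change at 20 mM 0.99, limma adjusted p = 9.21e-06, with 3 of 3 libraries higher). SKIL, which binds SMAD proteins and blocks them, rose from 0.819 to 1.57 and 1.67 FPKM. The ligand TGFB2 fell from 6.87 to 4.50 and 3.95 FPKM, and the signal carrier SMAD3 from 24.5 to 18.6 and 17.5 FPKM. Genes that dampen the signal did not all move one way, since SMURF2, a ligase that acts on receptors and SMAD proteins, was lower at 20 mM (-0.37, limma adjusted p = 0.00726), as was the receptor TGFBR1, both chosen after their values were seen. The other genes higher at both doses were SMAD7, TGIF1 and SMURF1, and the others lower at 10 mM were INHBA and TGFBI, all 5 chosen after their values were seen. The call of SMURF2 at 20 mM was kept in 18 of 18 alternatives and that of TGFBR1 in 14. At 10 mM the call of TGIF1 was kept in 8 of 18 alternatives, those of SMAD7 and SMURF1 in 12, that of TGFBI in 14, that of TGFB2 in 15 and those of INHBA and SKIL in 16. At 20 mM that of INHBA was kept in 12, those of SMAD7 and SMURF1 in 16 and that of TGFBI in 17.

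SNAIL and its relatives are controlled through protein turnover, so 12 kinases, ubiquitin ligases and a deubiquitinase that act on them were listed, of which 11 were tested. At 10 mM 2-DG 2 were higher and 0 lower (18.2% called, beside 29.7% of all genes), and at 20 mM 3 were higher and 1 lower (36.4%, beside 37.0%), with medians of 0.15 and 0.12. SIAH2, a ubiquitin ligase, rose from 8.97 FPKM in the control to 11.6 at 10 mM and 13.9 at 20 mM, and its call at 10 mM was kept in 13 of 18 alternatives. GSK3B, whose kinase marks SNAIL for destruction, rose from 1.94 to 2.79 and 2.91 FPKM (log2 fold change at 20 mM 0.41, limma adjusted p = 0.00704, with 3 of 3 libraries higher), with its call at 10 mM kept in 16. BTRC, the ligase that reads that mark, was at 3.63, 4.49 and 4.52 FPKM, and its call at 20 mM (0.25, limma adjusted p = 0.0452) held in 9 of 18 alternatives. FBXL5, another ligase of SNAIL, was at 13.0, 11.7 and 10.8 FPKM, and was called lower at 20 mM in 15 of 18 alternatives. Protein levels were not measured. In the comparison of 20 mM with 10 mM 2-DG, 0 genes of any of these 7 lists were called by limma.

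**Figure D5:**
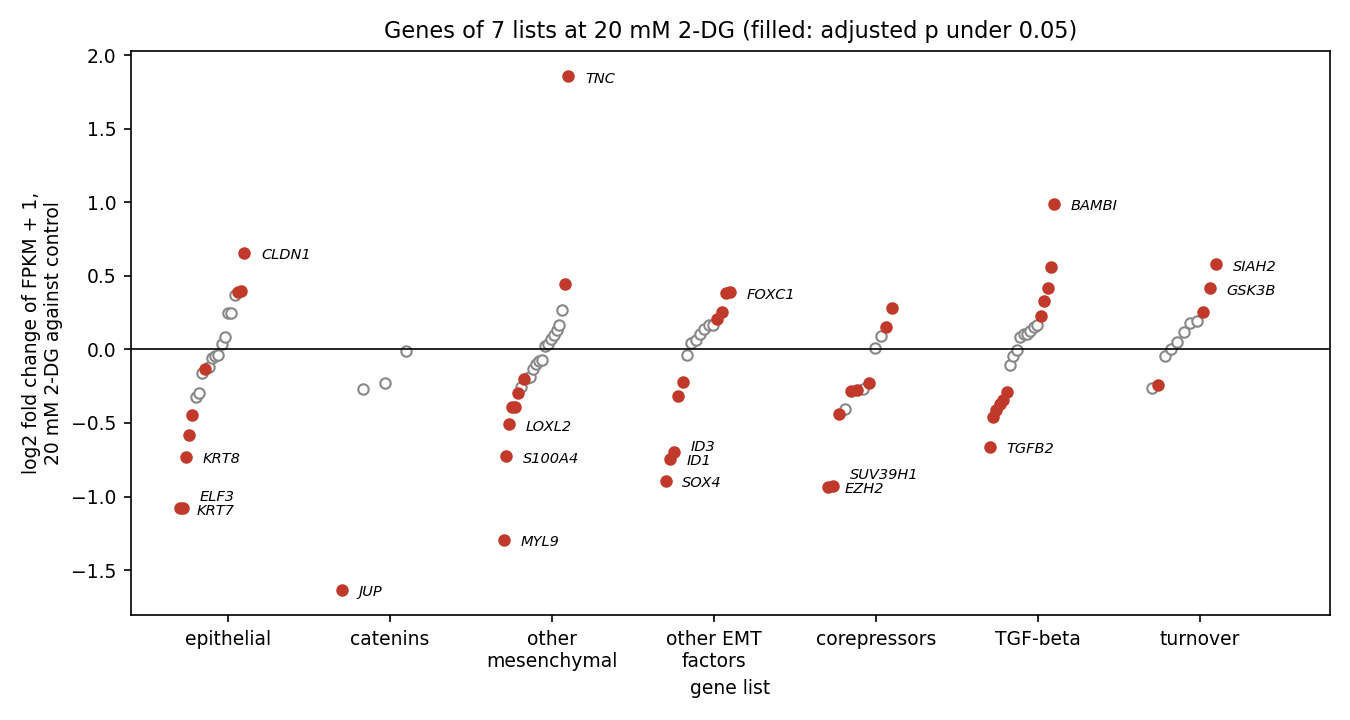
Log2 fold change of FPKM + 1 at 20 mM 2-DG against the control (vertical axis) for each tested gene of the 7 lists (horizontal axis), sorted within each list; filled points have an adjusted p under 0.05 by limma and names mark called genes with large changes. JUP and TNC are the farthest from 0, and called genes lie on both sides of 0 in each list other than the catenins.

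The label of the line was checked against marker genes. ESR1 and PGR, the estrogen and progesterone receptor genes, were under 1 FPKM in all 9 libraries. ERBB2, which encodes HER2, was at 8.81 FPKM in the control, against 5.91 at 10 mM and 5.76 at 20 mM 2-DG (log2 fold change at 20 mM -0.54, limma adjusted p = 0.000385, with 3 of 3 libraries lower). With high VIM and hardly any CDH1, these values go with the mesenchymal-like, triple-negative label, while keratins were abundant. The 6 luminal markers summed to between 537 and 622 FPKM in the control, 390 and 482 at 10 mM, and 393 and 417 at 20 mM. KRT19 was the most abundant of them, at 270.3 FPKM in the control, against 194 at 10 mM and 180.2 at 20 mM, and KRT8, KRT18, KRT19 and EPCAM are on the epithelial list too. Of the 5 luminal markers tested, 2 were lower at 10 mM (KRT8 and KRT19) and 3 at 20 mM (these and GATA3), and 0 were higher, where 17.5% and 21.6% of all genes were lower. GATA3 was at 2.03 FPKM in the control and 1.30 at 20 mM, and FOXA1, a defining luminal factor, was too low to be tested.

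Markers of other cells were low, and none was at 0 in all 9 libraries. The 8 fibroblast markers summed to between 1.27 and 2.01 FPKM in a library, with 7 of 8 under 1 FPKM in every library and COL1A1 the most abundant, and of the 3 tested only PDGFRB was called, lower at both doses, a call kept in 10 of 18 alternatives at 10 mM and in 11 at 20 mM, where 29.7% and 37.0% of all genes were called. The 4 leukocyte markers summed to between 1.17 and 3.95 FPKM, with 3 of 4 under 1 FPKM. Nearly all of that was CD14, at 3.05 FPKM in the control, against 2.12 at 10 mM and 1.47 at 20 mM, where it was called lower (log2 fold change -0.71, limma adjusted p = 0.00903, with 3 of 3 libraries lower). The 3 endothelial markers summed to between 0.854 and 1.95 FPKM, with 2 of 3 under 1 FPKM and PECAM1 the most abundant, at 1.72, 1.23 and 0.914 FPKM and the only one called, lower at 20 mM. The luminal and endothelial sums were lower in each treated library than in each control library, as CDH1 and SNAI1 were, and the leukocyte and fibroblast sums were lower than in each control library in 5 of the 6 treated libraries. Other cells of a tumor were absent by design, and the relation of these marker sums to the CDH1 and SNAI1 results was not tested.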

How the data were processed

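The authors deposited FPKM values, 1 file per library, and neither the aligner nor the counting tool and annotation are given in the sources used here. The submitters give the genome build as GRCh38 (hg38). Reads were recovered by finding the library total and gene length that make all values of a gene whole, within 0.005 of a read, which worked for 32804 of the 32806 genes above 0, and for 49.8% of these the length was that of GENCODE release 29. A factor common to all reads of a gene cannot be seen. Genes were tested with limma 3.58.1 in R 4.3.3 on log2(FPKM + 1), with lmFit, contrasts and eBayes with a variance trend, all 9 libraries in a single fit, and Benjamini-Hochberg adjustment over the 16569 genes that passed the filter. A gene was called at an adjusted p under 0.05.

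Named genes were the 10 mesenchymal state genes, the 2 genes most like each of those with a mean of at least 1 FPKM, up to 4 called genes with the largest fold change at 20 mM 2-DG per list, and genes for the check of the line. The lists were epithelial genes, catenins, other mesenchymal markers, other EMT transcription factors, corepressors, the TGF-beta pathway, protein turnover, and markers of receptors, luminal cells, fibroblasts, leukocytes and endothelium. Genes and lists were chosen with earlier results of these data known, and 1 gene was left out of the list of other EMT transcription factors after its values were seen, for a reason unrelated to them.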

Additional observations from a re-analysis of the deposited data

How the results depend on the processing

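Each fold change of the 8 tested genes was computed again under 18 alternatives: a pseudocount of 0.1, all genes above 0, at least 10 reads in every library (where CDH2 could not be tested), median-ratio scaling, limma-voom on the recovered reads, a replicate block, no variance trend, leaving out each library, and 2 alternatives chosen after seeing the data, which left out the 2 libraries highest in long genes or added the long-gene difference, centred within each condition, as a covariate. Of 429 values, 399 kept their direction and their side of the threshold, 7 passed the threshold that had not, and 23 changed sign, none of them called before or after. With all libraries these log2 fold changes were at most 0.08 in size. Leaving out 1 library, VIM ranged from -0.0713 to 0.136 and ZEB2 from -0.0647 to 0.0589 at 10 mM, and ZEB2 from -0.0723 to 0.0512 at 20 mM. For 20 mM against 10 mM the ranges were -0.0926 to 0.204 for FN1, -0.00941 to 0.00361 for CDH2, -0.112 to 0.237 for ZEB1 and -0.0458 to 0.0462 for ZEB2. VIM at 20 mM was 0.000308 with median-ratio scaling. ZEB2 at 20 mM was 0.0114 with a pseudocount of 0.1, 0.0165 with median-ratio scaling, 0.0180 by limma-voom and 0.0512 without the 2 libraries highest in long genes. Without those 2, ZEB2 was 0.0462 and CDH2 0.00333 for 20 mM against 10 mM. The cause was not tested. CDH1, SNAI1 and SNAI2 were called under all 18 at both doses, with limma adjusted p-values up to 0.00393, 0.0238 and 0.0207 at 10 mM and up to 0.00210, 0.00479 and 0.0489 at 20 mM 2-DG. With the long-gene covariate 5 of the 8 genes were called at 10 mM and 5 at 20 mM, FN1 lower (limma adjusted p = 0.0134 and 0.0226, log2 fold change -0.24 and -0.21) and ZEB1 higher (0.0155 and 0.00355, 0.26 and 0.34) in addition, where 39.6% and 46.0% of all genes were called. The covariate comes from the same libraries and, being centred within each condition, leaves the fold changes as they were by construction. Over the alternatives the adjusted p ranged from 0.0134 to 0.691 and from 0.0226 to 0.787 for FN1, and from 0.0155 to 0.684 and from 0.00355 to 0.406 for ZEB1. Leaving out 1 library gave 3 to 4 called genes at 10 mM, 3 to 3 at 20 mM and 0 to 0 for 20 mM against 10 mM. Among all 16569 genes, 1503 to 2043 were then higher and 2343 to 2843 lower at 10 mM. At 20 mM 1904 to 2799 were higher and 2752 to 3804 lower. The 4 called genes came without replicate 2 at 10 mM, when ZEB1 reached 0.45 (limma adjusted p = 0.0343) and 29.5% of all genes were called. Without the 2 libraries highest in long genes the counts were 3, 3 and 0. Of all 16569 genes, 1448 were then higher and 2170 lower at 10 mM, and 2499 and 3335 at 20 mM. CDH2 was called at 20 mM with all genes above 0 (limma adjusted p = 0.0407) and by limma-voom (adjusted p = 0.0323, log2 fold change -2.37). In each of these fits 4 of the 8 genes were called, where 14.9% of the 32806 genes above 0 and 38.0% of the 16569 genes were called. The 4 called by limma-voom include CDH2, which passed the filter only through the control. Over the 17 alternatives of CDH2 the adjusted p ranged from 0.0323 to 0.424, and the cause was not tested.

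The thresholds of the study, put on log2(FPKM + 1), gave counts of 0 at 10 mM and 0 at 20 mM 2-DG, since no log2 fold change of FPKM + 1 exceeded 1 in size. With a pseudocount of 0.1 they called CDH1 at 10 mM, and CDH1 and SNAI1 at 20 mM, where 6.06% and 8.97% of all genes passed. With limma-voom they called CDH1 and CDH2 at 10 mM and also SNAI1 at 20 mM (9.57% and 12.8% of all genes), where CDH2 passed the filter only through the control. The replicate numbers showed no sign of pairing libraries across conditions (correlations of their deviations between -0.406 and 0.293 for the same number). The labels do not say whether they pair, and with 3 libraries in each condition such correlations cannot settle it. With a replicate block the counts were 3, 3 and 0. With that block 1754 of all genes were higher and 2551 lower at 10 mM, and 2277 and 3271 at 20 mM. Depth limits CDH1 and CDH2, with at most 15 and 8 reads in a treated library, and the TWIST genes. Of the calls on the gene lists, those not kept in every alternative at 10 mM 2-DG were kept in 6 of 18 for ID1 and LGALS1, 8 for TGIF1, 9 for HDAC2, FOXC1 and ID4, 10 for PDGFRB and GRHL1, 12 for TPM2, SMAD7 and SMURF1, 13 for SIAH2, CTNNB1 and HDAC1, 14 for ESRP2 and TGFBI, 15 for TGFB2 and CD44, 16 for SKIL, GSK3B and INHBA, 17 for KDM1A, and 16 of 17 for ID2. At 20 mM they were kept in 5 for GRHL1, 6 for CTBP1, 8 for LGALS1, 9 for BTRC and CDH11, 11 for PDGFRB, 12 for INHBA and EHMT2, 14 for ID4 and TGFBR1, 15 for FBXL5, 16 for GATA3, SMAD7 and SMURF1, and 17 for FOXC1, FOXQ1 and TGFBI. SKIL and GSK3B lost their calls at 10 mM without control replicate 1 (limma adjusted p = 0.0501 and 0.0556, log2 fold change 0.42 and 0.31) and without the 2 libraries highest in long genes (0.0563 and 0.0699).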
